A study of Homo sapiens with 6 samples.

Results

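The genes described here are 10 genes used as markers of eosinophils, basophils and mast cells, out of 60612 gene IDs in the count tables. They are CLC, RNASE2, RNASE3, EPX and PRG2, which encode granule and cytoplasmic proteins of eosinophils, CPA3, TPSAB1 and HDC, which encode proteases and an enzyme of mast cells and basophils, and the receptor genes IL1RL1 and MS4A2. Each symbol matched 1 Ensembl ID. The genes were picked by name after results of the same libraries were known, with CLC and RNASE2 already seen among the large falls, so their values are given as a description. Counts of these genes called in the fit over all genes are part of that description and support nothing.

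The libraries came from KO52, an established acute myeloid leukemia (AML) line with mutations on both alleles of CEBPA. All 3 groups carried a doxycycline-inducible lentiviral vector and were sorted for GFP after doxycycline. The dnCEBP group expressed a dominant negative C/EBP peptide, the dnFOS group expressed a dominant negative FOS peptide, and the EV group carried the empty vector, with 2 libraries of total RNA in each group. Each peptide acts as a decoy partner that keeps its family, C/EBP or AP-1, off DNA, so the comparisons with EV ask which genes depend on either family. Every group derives from 1 cell line that already carries mutant CEBPA, and the time of induction before RNA was taken was not found in the labels.

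Eosinophils, basophils and mast cells are granule-bearing cells of allergic and antiparasite responses and arise from myeloid progenitors that express GATA factors together with C/EBP factors. Eosinophil granules hold cationic proteins, namely ribonucleases, a peroxidase and the major basic protein. Mast cells and basophils store histamine and proteases on serglycin, and release them when the high-affinity IgE receptor is crosslinked or when IL-33 acts on its receptor ST2. AML cell lines are arrested blasts and can transcribe several of these genes at once. A level here therefore describes RNA of a leukemic line and not of a mature granulocyte or mast cell.

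Total counts ran from 9862994 in a dnFOS library to 27663179 in a dnCEBP library, and the dnFOS libraries were the shallowest, at 14583615 and 9862994. The log2 CPM values of replicates (CPM, counts for each 1000000 of the scaled library size) correlated across 15395 genes, which are not independent replicates, with r between 0.981 and 0.987 (Pearson). The 7 myeloblast markers examined passed the filter on low counts, with a summed level between 1039 and 1207 CPM in every library. Markers of the mature cells were uneven. The mast cell and basophil list summed to 657.5 to 1015 CPM per library, with HPGDS, SIGLEC6 and FCER1A among its abundant genes. In contrast, IL5RA, the eosinophil growth factor receptor, had 2 to 8 counts per library, the eotaxin receptor gene CCR3 had 0 to 6, and ALOX15, OLIG2, IL4, IL13 and MRGPRX2 had 0 in all 6 libraries. The 10 genes are therefore called by name in what follows and not taken as a cell type.

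Promoters are shown of the genes called in either comparison with EV, as far as they could be printed, because the peptides act on factors that bind such DNA. RefSeq (GRCh38.p14) gave a start for 7 of the 10 genes, with 2 starts for IL1RL1, and EPX, PRG2 and TPSAB1 were not matched. The lines below give the stretch from base -250 (counted back from the start, strand of the gene) to the last base before the first annotated exon. Capitals mark matches on either strand to AP-1 (TGANTCA), C/EBP (TTGCNNAA), GATA (GATAA) or RUNX (TGTGGT) letters.
CLC: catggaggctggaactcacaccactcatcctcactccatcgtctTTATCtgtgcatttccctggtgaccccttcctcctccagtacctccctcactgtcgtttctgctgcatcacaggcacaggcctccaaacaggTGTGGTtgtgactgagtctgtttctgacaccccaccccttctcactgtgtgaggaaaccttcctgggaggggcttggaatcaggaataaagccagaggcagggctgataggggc
RNASE2: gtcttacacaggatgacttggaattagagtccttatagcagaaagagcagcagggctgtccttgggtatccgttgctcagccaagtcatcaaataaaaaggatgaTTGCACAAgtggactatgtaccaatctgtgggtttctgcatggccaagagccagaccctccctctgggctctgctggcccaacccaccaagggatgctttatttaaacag
RNASE3: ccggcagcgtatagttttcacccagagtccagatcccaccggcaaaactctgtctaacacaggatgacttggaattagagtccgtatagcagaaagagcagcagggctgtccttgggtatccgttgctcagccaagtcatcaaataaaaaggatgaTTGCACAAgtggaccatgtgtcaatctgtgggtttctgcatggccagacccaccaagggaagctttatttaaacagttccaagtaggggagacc
CPA3: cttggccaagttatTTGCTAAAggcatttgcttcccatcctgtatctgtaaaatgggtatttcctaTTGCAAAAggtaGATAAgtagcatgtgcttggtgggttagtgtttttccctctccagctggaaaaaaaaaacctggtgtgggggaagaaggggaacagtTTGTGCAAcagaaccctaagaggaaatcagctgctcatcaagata
IL1RL1 start 1: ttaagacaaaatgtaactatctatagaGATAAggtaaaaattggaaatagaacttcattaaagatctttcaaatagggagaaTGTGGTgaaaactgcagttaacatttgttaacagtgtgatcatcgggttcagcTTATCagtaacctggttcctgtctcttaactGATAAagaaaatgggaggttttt
IL1RL1 start 2: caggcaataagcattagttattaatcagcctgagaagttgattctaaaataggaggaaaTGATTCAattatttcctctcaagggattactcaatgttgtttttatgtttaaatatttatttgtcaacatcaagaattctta
In genome coordinates these stretches were chr19:39738030-39738279 on the minus strand for CLC, chr14:20955237-20955451 for RNASE2, chr14:20891135-20891384 for RNASE3, chr3:148865046-148865255 for CPA3, chr2:102311313-102311501 for IL1RL1 start 1 and chr2:102337007-102337147 for IL1RL1 start 2, the last 5 on the plus strand. A GATA match of CPA3 at -44 to -40 runs into the annotated exon and is not in capitals.

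Matches to the AP-1 letters were found in 1 of the 8 windows of 250 bases, the window of the inner IL1RL1 start (-191 to -185). C/EBP letters were found in RNASE2, RNASE3 and CPA3, where the window held 3 matches. GATA letters were found in CLC, CPA3, the outer IL1RL1 start, HDC and MS4A2, and RUNX letters in CLC, the outer IL1RL1 start and HDC. The windows of HDC and MS4A2 lie almost wholly in annotated exons and are not printed. Over 35116 promoter windows of the same length, 6.57% held a match to AP-1, 9.05% to C/EBP, 20.4% to GATA and 11% to RUNX, and the joined C/EBP:AP-1 letters TGATGCAA, held by 0.772%, were in none of the 8. No 2 matches overlapped. These are matches of letters only, and a window without one says nothing of binding elsewhere.

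**Figure D1:**
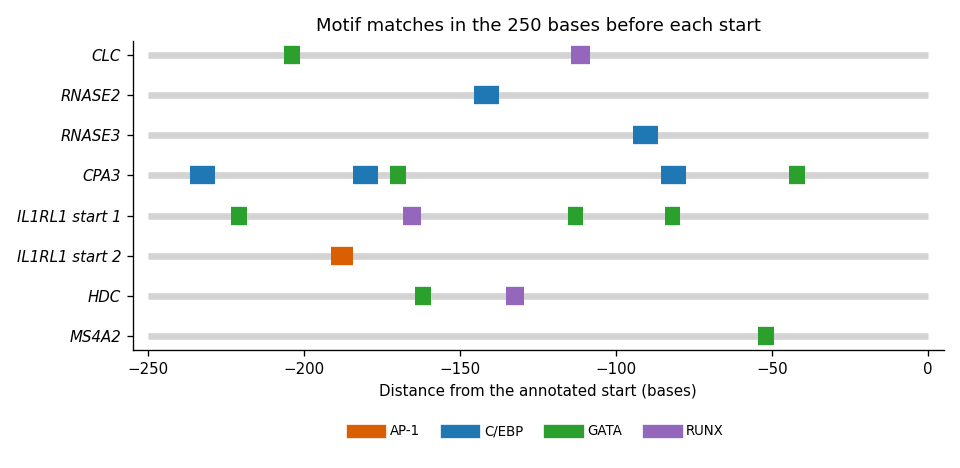
Positions of matches to AP-1, C/EBP, GATA and RUNX letters in the 8 windows, by distance in bases from the annotated start at 0 (grey, the 250 bases searched; colored blocks, matches on either strand). The 1 AP-1 match lies at the inner start of IL1RL1, and RNASE2 and RNASE3 hold 1 C/EBP match each.

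RNASE2 and RNASE3 are neighbors on chromosome 14 and arose by duplication. Of 199 aligned bases of their 2 windows, 192 were identical (96.5%), with a longest shared run of 86 bases at -217 to -132 in RNASE2 and -166 to -81 in RNASE3. That run holds the identical C/EBP match TTGCACAA, at -145 to -138 and at -94 to -87. Their transcripts are distinct enough to be counted apart, since none of the 75-base windows of either RNA was found in another gene.

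CLC was the most abundant in EV, per kilobase of exon, of the eosinophil protein genes among the 10. CLC (ENSG00000105205; GRCh38 chromosome 19, 39731250 to 39738028) encodes galectin-10, the protein of Charcot-Leyden crystals. It had 261 and 220 counts with EV, 129 and 96 with dnCEBP and 10 and 10 with dnFOS. The 3 groups did not overlap once scaled, with every dnCEBP library below EV and every dnFOS library below dnCEBP. The CLC level was 10.5 ± 0.62 CPM in EV, 4.70 ± 0.10 CPM in dnCEBP and 0.81 ± 0.22 CPM in dnFOS (SD, n = 2 here and below). The edgeR log2 fold change of CLC against EV was -1.16 (SE 0.20) in dnCEBP and -3.74 (SE 0.30) in dnFOS, and between the peptides it was -2.58 (SE 0.32). In bulk RNA, fewer cells with a transcript and less transcript per cell cannot be told apart.

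RNASE2 (ENSG00000169385; chromosome 14, 20955452 to 20956436) encodes the eosinophil-derived neurotoxin, a ribonuclease with antiviral activity. Its counts were 261 and 153 with EV, 114 and 44 with dnCEBP and 77 and 41 with dnFOS. In both peptide groups the libraries lay below both EV libraries, and the 2 peptide groups overlapped, with 4.22 and 2.12 CPM in dnCEBP and 5.01 and 3.96 CPM in dnFOS. Replicates of RNASE2 were also farther apart than those of CLC, at 10.9 and 7.0 CPM in EV. The log2 fold change of RNASE2 was -1.47 (SE 0.27) in dnCEBP and -0.98 (SE 0.28) in dnFOS, and between the peptides 0.49 (SE 0.30). Its size depended on single libraries. In dnCEBP it was -1.12 without EV replicate 1, -2.08 without dnCEBP replicate 1 and -1.09 without dnCEBP replicate 2, and in dnFOS -0.63 without EV replicate 1.

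RNASE3 (ENSG00000169397; chromosome 14, 20891399 to 20892348) encodes the eosinophil cationic protein, a ribonuclease that is toxic to parasites and bacteria. It had 43 and 38 counts with EV, 9 and 11 with dnCEBP and 0 in each dnFOS library. No read of RNASE3 was seen in dnFOS, although its neighbor RNASE2 kept 77 and 41. A count of 3, used as the floor of detection and covering counting error only, was worth 0.243 CPM on average in the dnFOS libraries, so RNASE3 was at least 7.30-fold lower than in EV and at least 1.78-fold lower than in dnCEBP. In dnCEBP the log2 fold change was -2.04 (SE 0.56), and the level was 0.43 ± 0.14 CPM against 1.77 ± 0.05 CPM in EV. Of the reads of the gene pair, RNASE2 held 85.9% and 80.1% in EV, 92.7% and 80.0% in dnCEBP and 100% in both dnFOS libraries, with the dnCEBP shares on either side of the EV shares.

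EPX (ENSG00000121053; chromosome 17, 58192737 to 58205174), which encodes eosinophil peroxidase, was close to the floor everywhere. It had 10 and 7 counts with EV, 1 and 2 with dnCEBP and 2 and 0 with dnFOS, and did not pass the filter on low counts. All 4 peptide libraries were below both EV libraries. The ratio of summed reads was 5.92-fold lower in dnCEBP (95% exact interval 1.71 to 31.5) and 4.78-fold lower in dnFOS (1.14 to 42.7), intervals that cover counting error only.

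PRG2 (ENSG00000186652; chromosome 11, 57386794 to 57390657) encodes the major basic protein of the eosinophil granule core. It had 24 and 13 counts with EV, 19 and 12 with dnCEBP and 5 and 5 with dnFOS. The dnCEBP libraries overlapped EV, and both dnFOS libraries lay below EV. The log2 fold change of PRG2 was -0.32 (SE 0.60) in dnCEBP and -1.02 (SE 0.70) in dnFOS, both within 2 SE of 0, and the dnCEBP value turned to 0.11 without EV replicate 1. PRG2 also overlaps the gene AP000781.2 on the same strand over 43.0% of its exon bases, and 53.3% of its 75-base windows occur there too, so its counts are uncertain.

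**Figure D2:**
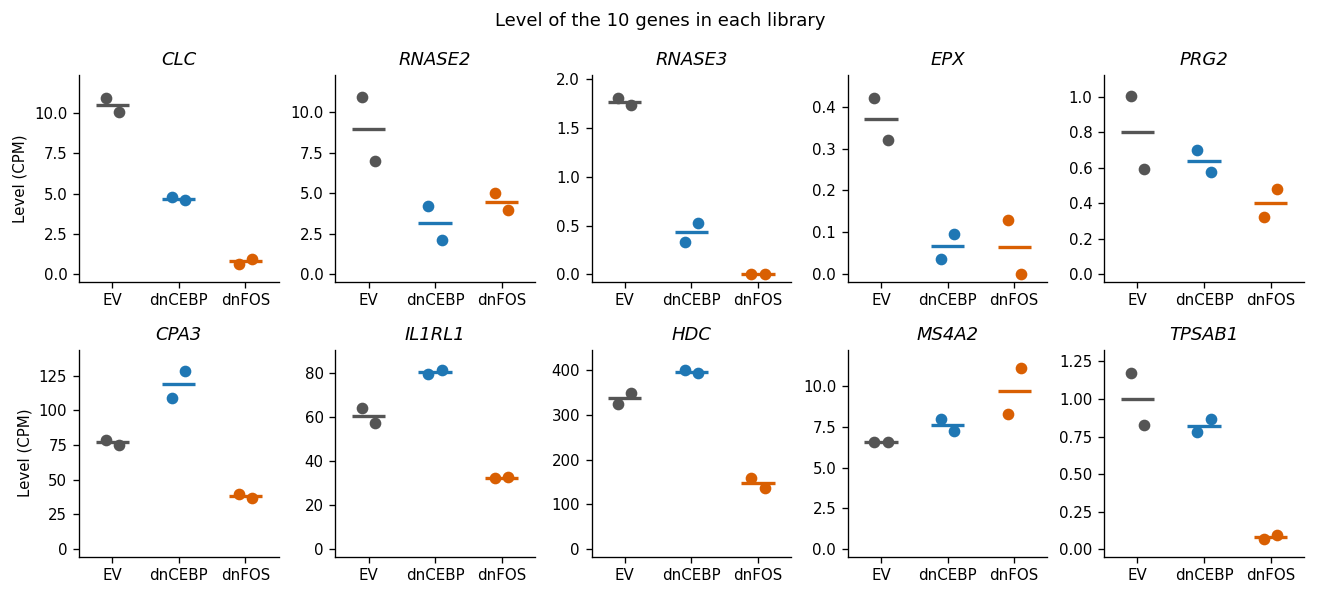
Level (CPM, linear axes that differ between panels) of the 10 genes in each library; points are the 2 libraries of EV, dnCEBP and dnFOS, and bars are group means. CLC steps down from 10.5 to 4.70 to 0.81 CPM, CPA3, IL1RL1 and HDC are highest in dnCEBP and lowest in dnFOS, and MS4A2 is highest in dnFOS.

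Of the mast cell and basophil mediator genes, CPA3 and HDC were abundant and followed another order of groups than CLC, and TPSAB1 was neither. CPA3 (ENSG00000163751; chromosome 3, 148865256 to 148897196) encodes carboxypeptidase A3, a protease of mast cell granules. CPA3 had 1870 and 1646 counts with EV, 2953 and 2664 with dnCEBP and 615 and 382 with dnFOS. No 2 groups overlapped, with dnCEBP highest and dnFOS lowest. The level of CPA3 was 76.9 ± 2.19 CPM in EV, 118.9 ± 13.7 CPM in dnCEBP and 38.5 ± 2.20 CPM in dnFOS. Its log2 fold change was 0.63 (SE 0.09) in dnCEBP, -0.995 (SE 0.10) in dnFOS and -1.62 (SE 0.10) between the peptides.

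HDC (ENSG00000140287; chromosome 15, 50241947 to 50266026) encodes histidine decarboxylase, the enzyme that makes histamine. It was the most abundant of the 10 genes, with 7736 and 7602 counts with EV, 10787 and 8142 with dnCEBP and 2444 and 1403 with dnFOS. Scaled to depth, the HDC level was 336.3 ± 16.6 CPM in EV, 396.1 ± 4.33 CPM in dnCEBP and 147.4 ± 16.6 CPM in dnFOS. The order of groups was that of CPA3, again without overlap. The log2 fold change of HDC was 0.24 (SE 0.09) in dnCEBP, -1.19 (SE 0.09) in dnFOS and -1.42 (SE 0.09) between the peptides.

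TPSAB1 (ENSG00000172236; chromosome 16, 1240696 to 1242554) encodes tryptase alpha and beta 1, a serine protease of mast cells. It had 28 and 18 counts with EV, 21 and 18 with dnCEBP and 1 count in each dnFOS library. EV and dnCEBP overlapped, and both dnFOS libraries were below them, at a ratio of summed reads 12.9-fold lower than in EV (95% exact interval 3.38 to 110.1, counting error only, from 2 reads in all). In dnCEBP the log2 fold change of TPSAB1 was -0.29 (SE 0.56). TPSAB1 shares 67.9% of its 75-base windows with other genes, mostly with its near-identical neighbor TPSB2, so the 2 were also summed. Summed, the tryptase pair was at 14.6 ± 0.64 CPM in EV, 13.7 ± 2.29 CPM in dnCEBP and 4.24 ± 0.84 CPM in dnFOS, which was 3.45-fold lower than in EV. TPSAB1 held 7.78% and 5.81% of the pair's reads in EV and 1.79% and 2% in dnFOS, a split that depends on how shared reads were counted.

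The receptor genes had values of opposite sign in dnFOS, where MS4A2 was not called. IL1RL1 (ENSG00000115602; chromosome 2, 102311502 to 102352037) encodes ST2, the receptor of IL-33. IL1RL1 had 1535 and 1249 counts with EV, 2152 and 1690 with dnCEBP and 494 and 340 with dnFOS. As with CPA3 and HDC, no groups overlapped and dnCEBP was highest, at 80.6 ± 1.38 CPM, against 60.8 ± 5.10 CPM in EV and 32.5 ± 0.50 CPM in dnFOS. The log2 fold change of IL1RL1 was 0.41 (SE 0.09) in dnCEBP, -0.90 (SE 0.10) in dnFOS and -1.31 (SE 0.10) between the peptides. Reads were counted per gene, so the 2 starts of IL1RL1 shown above were not told apart.

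MS4A2 (ENSG00000149534; chromosome 11, 60088261 to 60098466) encodes the beta chain of the high-affinity IgE receptor. It had 157 and 144 counts with EV, 216 and 150 with dnCEBP and 127 and 115 with dnFOS, that is 6.59 CPM in each EV library, 7.99 and 7.24 CPM in dnCEBP and 8.27 and 11.1 CPM in dnFOS. Both peptide groups lay above EV. The log2 fold change of MS4A2 was 0.21 (SE 0.19) in dnCEBP and 0.54 (SE 0.20) in dnFOS, or 0.75 without dnFOS replicate 1 and 0.33 without dnFOS replicate 2. MS4A2 was the 1 gene of the 9 fitted with a positive value in dnFOS.

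Per kilobase of exon, the order of levels in EV was HDC (85.0 CPM per kb), CPA3 (41.6), CLC (16.6), RNASE2 (11.9), IL1RL1 (10.6), RNASE3 (2.46), MS4A2 (1.48), TPSAB1 (0.661), PRG2 (0.436) and EPX (0.137). RNASE2 and IL1RL1, like TPSAB1 and PRG2, did not differ beyond the spread of their libraries in this order. The eosinophil protein genes thus spanned the range from CLC to EPX, and the histamine enzyme was the most abundant. Summed over the 10 genes, the level was 500.3 and 507.7 CPM in EV, 606.9 and 619.3 CPM in dnCEBP and 245.8 and 222.1 CPM in dnFOS, most of it HDC.

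Set against the whole table, 9 of the 10 genes passed the filter on low counts and EPX did not. RNASE3 passed through EV, since both EV libraries, 1 dnCEBP library and no dnFOS library exceeded the minimum of 0.457 CPM, and TPSAB1 passed without a dnFOS library above it. In dnCEBP 4 of the 9 had an edgeR adjusted p under 0.05, CPA3 and IL1RL1 higher and CLC and RNASE2 lower, where 1.07% of all genes tested did (0.624% as higher and 0.448% as lower). The number was 2 without EV replicate 1 or without dnCEBP replicate 2, and IL1RL1 was not called once any 1 of the 4 libraries compared was left out (log2 fold changes of 0.32 to 0.50). In dnFOS 7 of the 9 did, all lower, where 15.0% of all genes did (7.24% as higher and 7.76% as lower). The near-even split rests on the scaling, since library totals alone gave 1905 genes higher and 676 lower. The number of the 9 genes was 6 without EV replicate 1 or dnFOS replicate 2, where RNASE2 was not called. TPSAB1 was not called there without dnFOS replicate 1, when MS4A2 was called as higher. Between the peptides the 6 genes CLC, RNASE3, CPA3, IL1RL1, HDC and TPSAB1 were lower in dnFOS, where 14.7% of all genes differed (6.83% as higher and 7.84% as lower), or 2101 genes higher and 714 lower with library totals alone. The 6 became 4 without either dnFOS replicate, where neither RNASE3 nor TPSAB1 was called, and 5 without dnCEBP replicate 2, where RNASE3 was not. The members were picked with these contrasts known, so the counts describe the choice. The comparisons with EV share the EV libraries.

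By position of the libraries alone, 3 of the 9 genes had both dnCEBP libraries below both EV libraries and 4 had them above, where 20.9% and 21.9% of all genes did. In dnFOS 8 were below and 1 was above, where 28.4% and 28.3% were. Between the peptides 7 were below and 1 was above, where 25.9% and 28.6% of all genes were. The median log2 fold change of the 9 genes was -0.29 in dnCEBP, -1.02 in dnFOS and -1.42 between the peptides, or -1.31 between the peptides with RNASE3 at its bound. Over all genes tested the medians were -0.002, 0.004 and 0.02.

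**Figure D3:**
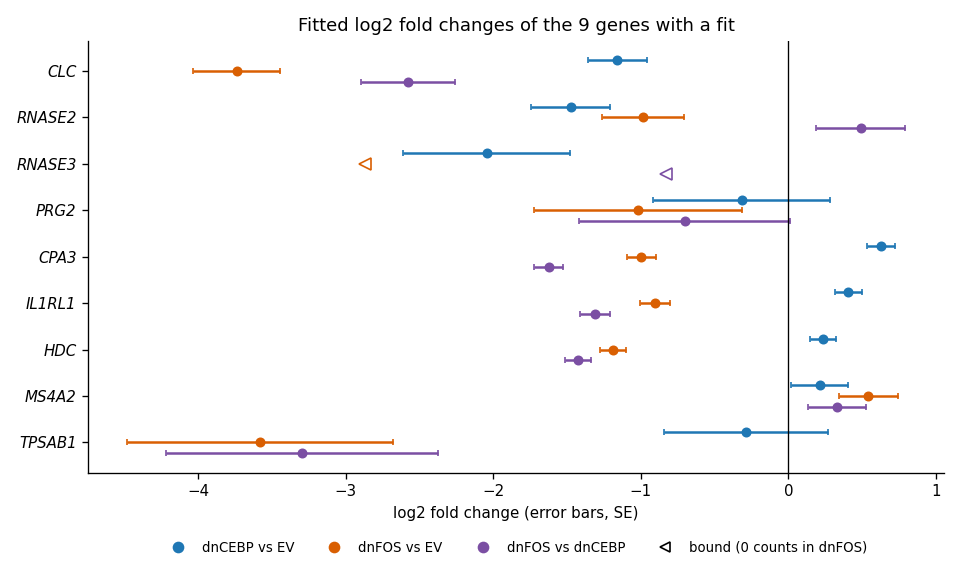
Fitted log2 fold change of the 9 genes with a fit in dnCEBP against EV (blue), dnFOS against EV (orange) and dnFOS against dnCEBP (purple); bars are SE, and open triangles are upper bounds for RNASE3, which had 0 counts in dnFOS. CLC and RNASE2 lie below 0 under both peptides, and CPA3, IL1RL1 and HDC lie above 0 in dnCEBP and below 0 in dnFOS.

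The other genes of these programs were examined in 6 lists of 82 genes, of which 51 passed the filter and 21 had no read in any library. In dnCEBP 1 of the 51 was higher and 1 lower, where 1.07% of all genes were called. In dnFOS 2 were higher and 15 lower, where 15.0% of all genes were called. The median log2 fold change of the 51 was -0.03 in dnCEBP and -0.21 in dnFOS. Without dnFOS replicate 2, the dnFOS number was 9 in place of 17, and without EV replicate 1 or dnCEBP replicate 2 the dnCEBP number was 0. Each group had 2 libraries and no label ties them to separate cultures, so these p-values measure only the spread between libraries, which may be technical.

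Of the 21 mast cell and basophil genes, 15 were tested, and in dnFOS 7 fell and 1 rose, with a median log2 fold change of -0.50. The tryptase genes TPSB2 (log2 fold change -1.74, edgeR adjusted p = 7.86e-07) and TPSD1 (-1.73, adjusted p = 0.0145) fell with similar sizes, the latter from few reads and without a call when EV replicate 1 or dnFOS replicate 2 was left out (adjusted p of 0.162 and 0.0996) or under limma-voom (0.0690). CTSG, which encodes the protease cathepsin G of mast cells and neutrophils, fell in dnFOS (log2 fold change -1.07) and in dnCEBP (-1.26), with edgeR adjusted p of 0.0204 and 0.0248. Both calls of CTSG were lost without EV replicate 1, at adjusted p of 0.201 and 0.284, and also without either library of the peptide group, at up to 0.124 and 0.181, and under DESeq2, at 0.0566 and 0.0965. HPGDS, the hematopoietic prostaglandin D synthase, moved as CPA3 did, with 0.38 in dnCEBP (edgeR adjusted p = 0.0153) and -0.43 in dnFOS (adjusted p = 0.000856). Its rise in dnCEBP was lost without EV replicate 1, EV replicate 2 or dnCEBP replicate 2, at adjusted p of 0.0928, 0.221 and 0.338.

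Granule storage genes were called in both directions. SRGN, which encodes the granule proteoglycan serglycin, fell in dnFOS (log2 fold change -0.57, edgeR adjusted p = 4.83e-05), and the surface lectin gene SIGLEC6 fell as well (-0.41, adjusted p = 0.00122). SLC18A2, the vesicular transporter that loads histamine into granules, rose by 1.14 in dnFOS (edgeR adjusted p = 0.000272), but 52.0% of its exon bases overlap PDZD8 on the other strand, and whether strand was used in counting is not given in the sources used here.

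The 3 chains of the IgE receptor were set side by side. The gamma chain gene FCER1G had 196 and 219 counts with EV, 225 and 183 with dnCEBP and 88 and 41 with dnFOS. It fell in dnFOS (log2 fold change -0.88, edgeR adjusted p = 0.00539), a call lost without EV replicate 2 (0.0537) or dnFOS replicate 2 (0.108). The alpha chain gene FCER1A stood at -0.24 (SE 0.09; edgeR adjusted p = 0.0608), and the beta chain MS4A2 at 0.54 as given above. The stem cell factor receptor KIT, on which mast cells depend, had a log2 fold change of 0.01 (SE 0.15) in dnCEBP and -0.02 (SE 0.16) in dnFOS, with edgeR adjusted p of 0.985 and 0.958.

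The eosinophil list gave little to measure. Of its 11 genes, 5 were tested and none was called against EV by edgeR, with smallest adjusted p of 0.283 in dnCEBP and 0.0553 in dnFOS. An unadjusted p was under 0.05 for 2 genes in each, and DESeq2 and limma-voom called 0 as well. Against EV, 3 of the 5 were higher and 2 lower under each peptide, with median log2 fold changes of 0.30 in dnCEBP and 0.64 in dnFOS. Between the peptides OLIG1 was called higher in dnFOS (edgeR adjusted p = 0.0201), where 14.7% of all genes differed. DESeq2 did not call it. PRG3, the neighbor and homolog of PRG2, had 8 and 2 counts with EV, 9 and 0 with dnCEBP and 0 in both dnFOS libraries. The inhibitory lectin gene SIGLEC8 had log2 fold changes of 0.56 (SE 0.27) in dnCEBP and 0.64 (SE 0.28) in dnFOS, with edgeR adjusted p of 0.400 and 0.133.

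Families of the eosinophil proteins were set beside CLC and the ribonucleases. Of the 11 other RNase A family genes, 7 had no read and 2 were tested, ANG and RNASE6, and neither was called by edgeR (smallest adjusted p of 0.758 in dnCEBP and 0.501 in dnFOS, 0 genes with an unadjusted p under 0.05 and 0 called by DESeq2 or limma-voom). Exons of ANG overlap RNASE4 on the same strand over 47.2% of their bases. Those of RNASE4, RNASE11 and RNASE12, which had no read, overlap other genes over 53.3%, 67.7% and 81.5%, so these counts are uncertain. Of 12 other galectin genes 5 were tested, and in dnFOS LGALS1 and LGALS3 fell. LGALS1 had 664.6 ± 78.1 CPM in EV and 259.9 ± 23.1 CPM in dnFOS, or -1.35 on the log2 scale (edgeR adjusted p = 6.42e-11), and stood at 0.14 in dnCEBP (adjusted p = 0.590). LGALS3 fell less (-0.72, edgeR adjusted p = 0.0305), and the call was lost without EV replicate 1, dnFOS replicate 1 or dnFOS replicate 2, at 0.205, 0.0808 and 0.168, and also with library totals alone (0.0639), DESeq2 (0.0640) and limma-voom (0.0686). CLC had the largest fall in dnFOS among the 6 galectin genes tested. It was picked with that fall already seen, so its place in this order is a description only.

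Among the 14 lineage factors, all tested, 3 fell and 1 rose in dnFOS and none was called in dnCEBP by edgeR (smallest adjusted p = 0.0671, unadjusted p under 0.05 for 4, DESeq2 0, limma-voom 1, SPI1). GATA1, a factor of eosinophil, mast cell and erythroid fates, had 182 and 134 counts with EV, 206 and 173 with dnCEBP and 36 and 30 with dnFOS. It fell in dnFOS (log2 fold change -1.41, edgeR adjusted p = 0.000214). CEBPE, a factor of terminal granulocyte maturation, fell with a like size (-1.39, edgeR adjusted p = 0.00396). The smaller values of GATA2 (-0.26, edgeR adjusted p = 0.0493) and CEBPA (0.30, adjusted p = 0.0145) lost their calls in several fits without 1 library, GATA2 without EV replicate 1 (0.425) or either dnFOS replicate (0.0896 and 0.124), and CEBPA without EV replicate 1 (0.0966), EV replicate 2 (0.140) or dnFOS replicate 2 (0.0595). GATA2 was also not called with library totals alone (0.233), DESeq2 (0.0584), limma-voom (0.0564) or after removal of the GC and length trend, where its value was -0.07 (0.592). That removal took the value of CEBPA to 0.60. Exons of CEBPA also overlap antisense genes, over 25% of its bases for the larger overlap. SPI1, which encodes PU.1, was at -0.69 in dnCEBP and -0.50 in dnFOS, with edgeR adjusted p of 0.0671 and 0.0733.

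Of 13 genes of cytokine and IgE signalling 10 were tested, and 3 fell in dnFOS. The IL-3 receptor gene IL3RA fell in dnFOS (log2 fold change -0.94, edgeR adjusted p = 4.80e-05), its partner CSF2RB was at -0.23 (adjusted p = 0.120), and IL1RAP, the co-receptor of ST2, at -0.06 (adjusted p = 0.793). The kinase gene LYN fell slightly (-0.27, edgeR adjusted p = 0.0320), a call lost without EV replicate 1 (0.267), EV replicate 2 (0.0647) or dnFOS replicate 2 (0.160), and with library totals alone (0.154). The adapter gene LAT, named after its values were seen, had 0 counts in both dnFOS libraries which puts it at least 2.48-fold below EV. Having no dnFOS read, LAT passed the filter through the other groups alone. DESeq2 gave it no adjusted p. The edgeR call of LAT (adjusted p = 0.0109) was lost without EV replicate 2 (0.0596), dnFOS replicate 1 (0.0738) or dnFOS replicate 2 (0.0655). Exons of LAT overlap another gene over 47.7% of their bases. IL3, IL5 and IL33 had no read. Beside it, IL1RL1 stood at -0.90 in dnFOS.

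**Figure D4:**
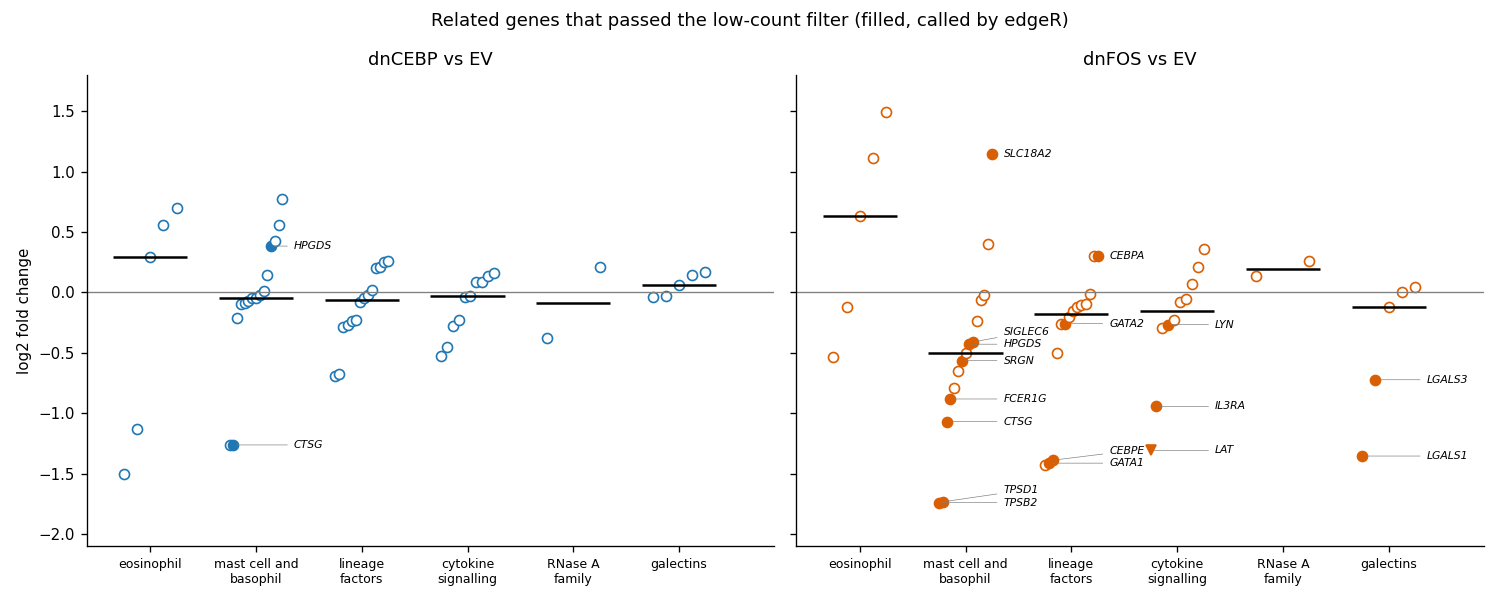
Log2 fold change of the related genes tested, by list, in dnCEBP (left) and dnFOS (right) against EV; filled points had an edgeR adjusted p under 0.05 and are named, black lines are list medians, and the triangle is an upper bound for LAT. In dnCEBP 2 points are filled, and in dnFOS 15 filled points lie below 0 and 2 above.

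Genes of other cell types moved in the same libraries. In dnFOS 6 of 7 tested neutrophil granule genes and 1 of 5 monocyte genes were called lower. So were 1 of 5 erythroid and megakaryocyte genes and 1 of 4 lymphoid genes, where 7.76% of all genes were. In dnCEBP 1 gene of these lists, MPO, was called lower. Of the 7 myeloblast genes, PTPRC and ANPEP were called lower and SPN higher in dnFOS, and ANPEP lower in dnCEBP. Over all genes 7.24% were called higher in dnFOS and 0.448% lower in dnCEBP. All 7 neutrophil genes had negative values in each comparison with EV. Their list median was -1.14 in dnCEBP and -2.21 in dnFOS, beside -0.29 and -1.02 for the 9 genes fitted. Both neutrophil medians fall on genes of low level, so their sizes are uncertain. In dnFOS the values ran from -4.16 to -0.44, with the abundant MPO and LYZ at -0.56 and -0.44. Medians of the monocyte, erythroid and megakaryocyte, and lymphoid lists were -0.91, -0.83 and -0.22 in dnFOS and -0.17, 0.21 and 0.34 in dnCEBP. The summed level of the 14 neutrophil genes was 277.9 to 324.1 CPM in EV, 130.0 to 132.4 CPM in dnCEBP and 202.9 to 207.5 CPM in dnFOS, and that of the 9 erythroid and megakaryocyte genes 190.1 to 199.4, 205.9 to 244.7 and 104.0 to 116.0 CPM. Most of the neutrophil sum came from MPO and LYZ, with means of 216.6 and 77.3 CPM in EV. The 9 monocyte genes summed to 5.32 to 10.1 CPM over all libraries and the 8 lymphoid genes to 98.1 to 153.5 CPM, and MMP8, CD163 and MS4A1 were among the markers with no read. MPO, the peroxidase of neutrophil granules, fell under both peptides, with -1.89 on the log2 scale in dnCEBP (edgeR adjusted p = 5.03e-13) and -0.56 in dnFOS (adjusted p = 0.000273). ITGA2B, LYZ and ANPEP fell in dnFOS, with log2 fold changes of -0.83, -0.44 and -0.58 (edgeR adjusted p of 2.94e-07, 0.00233 and 4.36e-05), and ANPEP also in dnCEBP (-0.37, adjusted p = 0.0254), a call lost without EV replicate 1 (0.274), EV replicate 2 (0.0934) or dnCEBP replicate 2 (0.589). What part the makeup of the cultures had in the values of the 10 genes was not tested.

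The genes with profiles most like those of CLC and RNASE2 were sought among 12317 named genes, by the root mean square difference of log2 CPM over the 6 libraries after centring each gene. For CLC these were CXCL8 (0.603), CDC42EP3-AS1 (0.611), ANXA8 (0.652), ENO2 (0.659) and RN7SL128P (0.680). CXCL8, the chemokine interleukin 8, was lower in dnFOS as CLC was, with 249.3 and 261.5 CPM in EV and 46.6 and 51.9 CPM in dnFOS. It was not lower in dnCEBP, at 291.6 and 282.7 CPM. None of the 5 shared the drop of CLC in dnCEBP, where their log2 fold changes ran from -0.18 to 0.31 against -1.16 for CLC. Genes outside these 5 did fall under both peptides, as given above for MPO. CDC42EP3-AS1 as an antisense gene, ANXA8 with its near-identical copy and few reads, and the pseudogene RN7SL128P are uncertain.

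For RNASE2 the closest profiles were those of CCDC154 (0.245), RNU4-1 (0.320), ARMCX4 (0.334), LRP3 (0.338) and NOXA1 (0.339). These differences are smaller than those for CLC. In RNASE2 and in each of the 5 genes dnCEBP replicate 2 was the lowest library, so the shared shape is in part a difference between replicates. RNU4-1 is a small nuclear RNA gene with related copies and is uncertain. The log2 fold changes of these 5 genes ran from -1.49 to -0.90 in dnCEBP and from -1.15 to -0.20 in dnFOS.

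**Figure D5:**
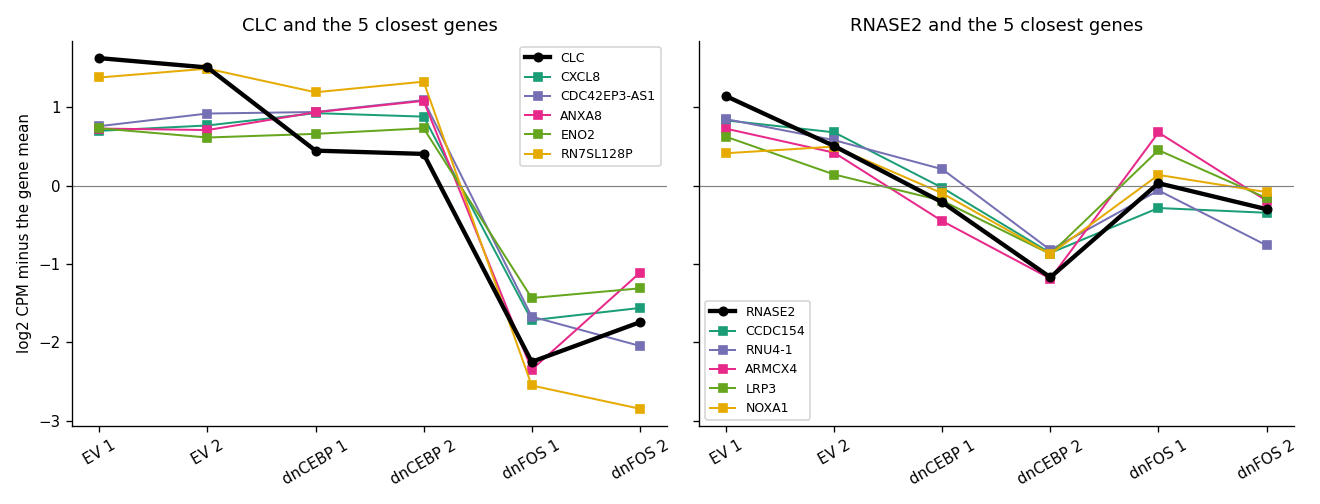
Log2 CPM minus the mean of each gene over the 6 libraries, for CLC (left, black) and RNASE2 (right, black) with the 5 genes closest to each. CLC has a log2 fold change of -1.16 in dnCEBP while its 5 neighbors lie between -0.18 and 0.31, and RNASE2 and its neighbors are lowest in dnCEBP replicate 2.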

How the data were processed

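The authors sequenced ribosomal RNA-depleted total RNA of 6 KO52 libraries as paired-end reads and deposited raw counts per gene, 1 table of 60612 gene IDs per library without normalization. The submitters' processing notes name Trimmomatic, HISAT2, featureCounts in Subread and the build hg38, without versions. Groups and replicate numbers came from the titles. Genes were matched to GENCODE release 29, with coordinates 1-based. The genes and lists were chosen with earlier results of these data known. Counts were fitted with edgeR 4.0.16 in R 4.3.3 (filterByExpr with minimum count 10, TMM, robust quasi-likelihood, 1 mean per group over all 6 libraries, two-sided), and p-values were adjusted by Benjamini-Hochberg over the 15395 genes tested and called under 0.05. Log2 CPM used a prior count of 2. Libraries with the same replicate number shared little of their deviation from the group mean (correlation 0.017 to 0.088). No label says whether the numbers pair libraries, and 2 libraries per group cannot settle it. Alternatives were no filter, a filter at a mean of 1 CPM, size factors by median of ratios, library totals, DESeq2 1.42.0, limma-voom (limma 3.58.1), only the groups compared, the replicate block, removal of a trend on GC content and length (mgcv 1.9-3) and each library left out. All 10 genes were named. Of the related lists, 16 genes were always named, with others called against EV at a mean of 1 CPM or more. Of other cell types, at most 4 called genes per comparison were named. Profile likeness took the 5 closest genes with a mean of 1 CPM or more. Scripts were tested on simulated data. Promoter sequences came from RefSeq on GRCh38.p14.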

Additional observations from a re-analysis of the deposited data

How the results depend on the processing

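No called value of a named gene changed direction under the alternatives run. In dnCEBP against EV the 165 genes called became 255 with no low-count filter, 297 in fits of only the groups compared and 261 after removal of the GC and length trend, and 33 to 314 with 1 library left out. The 4 of the 10 genes called there became 2 to 5 with 1 library left out. Of the related genes, 2 were called there, against 1 in DESeq2, 5 after removal of that trend and 0 to 3 with 1 library left out. In dnFOS against EV the counts with 1 library left out were 972 to 2426 for all genes, where 2309 were called, and 9 to 18 for related genes. Between the peptides they were 1182 to 2262 for all genes, where 2259 were called, 11 to 19 for related genes and 4 to 7 of the 10 genes, where 6 were called (4 in DESeq2). The replicate numbers, which no label ties to a pairing, were also fitted as a replicate block. That gave 488 calls in dnCEBP, 3172 in dnFOS and 3013 between the peptides, with 4 related genes in dnCEBP. Where a left-out library leaves 1 in a group, that library is assumed to vary like the others.

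Depth limited the low genes. DESeq2 gave no adjusted p for RNASE3, PRG2 and TPSAB1, so its 5 calls among the 10 genes in dnFOS, against 7, rest on fewer genes. Library totals alone moved the median of all genes by 0.10 on the log2 scale in dnFOS against EV, and the 7 calls there became 8.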
